A study of Drosophila melanogaster with 8 samples.

Results

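These transcripts had at least 2-fold lower signal in fly heads after 1 h of warming, and they number 112 of the 14755 targets of the array that carry a FlyBase transcript identifier (FBtr), among 26228 targets of every kind. They were chosen by their measured values. A member had to be well above background on all 4 control arrays, its mean log2 signal had to be lower by at least 1 in the warmed group, and every warmed array had to lie below every control array. That choice used the comparison of the groups itself, so the falls below are a description with no test, and "fell" means only that a transcript met this rule. Of the transcript targets, 11325 met the condition on the controls, and the 112 are 0.989% of them.

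All samples were adult heads of Drosophila melanogaster with the genotype w, elav-GAL4/+; UAS-dTrpA1/+, reared at 23 °C. The elav-GAL4 driver is active in neurons, and dTrpA1 is a cation channel that opens with warmth, so warming depolarises neurons that carry it. The 4 control_23C samples stayed at 23 °C and the 4 activated_31C samples spent 1 h at 31 °C before dissection. Each sample was a pool of 20 heads of both sexes. The design text describes the samples as independent without saying whether they came from separate cultures. All animals carried both driver and channel, so neural activity and warmth itself cannot be told apart. Each sample had its own 1-colour array, and 1 slide held all controls and the other slide all warmed samples, which confounds slide with group, and these cannot be told apart.

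The level of an mRNA is set by the balance of its synthesis and its decay. A messenger can fall quickly only if its existing copies are short-lived or are actively destroyed, and stopping synthesis shows within such a time only for messengers with rapid turnover. In flies, warmth is known to switch on heat shock genes and to lower the transcription of many other genes, while neural activity is known mainly for inducing genes. In whole heads, less RNA per cell cannot be told apart from fewer cells of a type.

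The files pair none of the 112 transcripts with a gene, and the RefSeq gene table used for names matched 0 of them, so they are given by identifier and no role is stated. For the same reason the label head could not be checked, since 0 of the markers of neurons, photoreceptors, glia, fat body, muscle, gut and blood cells had a named probe. An array had from 22026 to 24426 probes well above background, of 32162, and no member was saturated or unmeasured on any array. Control replicates 3 and 4 and warmed replicate 3 differed from the rest in a set of targets in earlier work on these data. Without these 3 arrays the rule gave 166 transcripts, of which 99 were among the 112, and the median difference of the 112 was −1.20. With fewer arrays the rule is easier to meet by construction. Levels below are log2 signal relative to each array's 75th percentile, so 0 is that percentile. Signals of different probes do not rank the amounts of different transcripts.

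Most of the falls were close to the threshold. The median log2 difference of the 112 was −1.18, against −0.0406 over all 11325 transcript targets that were well above background in the controls. In 72 members the fall was between 2-fold and 2.5-fold, in 22 it was between 2.5-fold and 3-fold, in 12 between 3-fold and 4-fold, and in 6 at least 4-fold. The largest measured difference was 6.93-fold. The size of the fall of FBtr0080001, which was well above background on no warmed array, is uncertain. Rises reached much further, and by the mirrored rule 457 of 11725 transcript targets (3.90%) rose at least 2-fold, 151 of them at least 4-fold, with the largest at 7.06 on the log2 scale. The mirrored rule asks for signal well above background on the warmed arrays only. Some of these rises may thus start from controls at background, where their size is uncertain. The plot of the difference against control signal shows this unequal reach on the 2 sides.

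**Figure D1:**
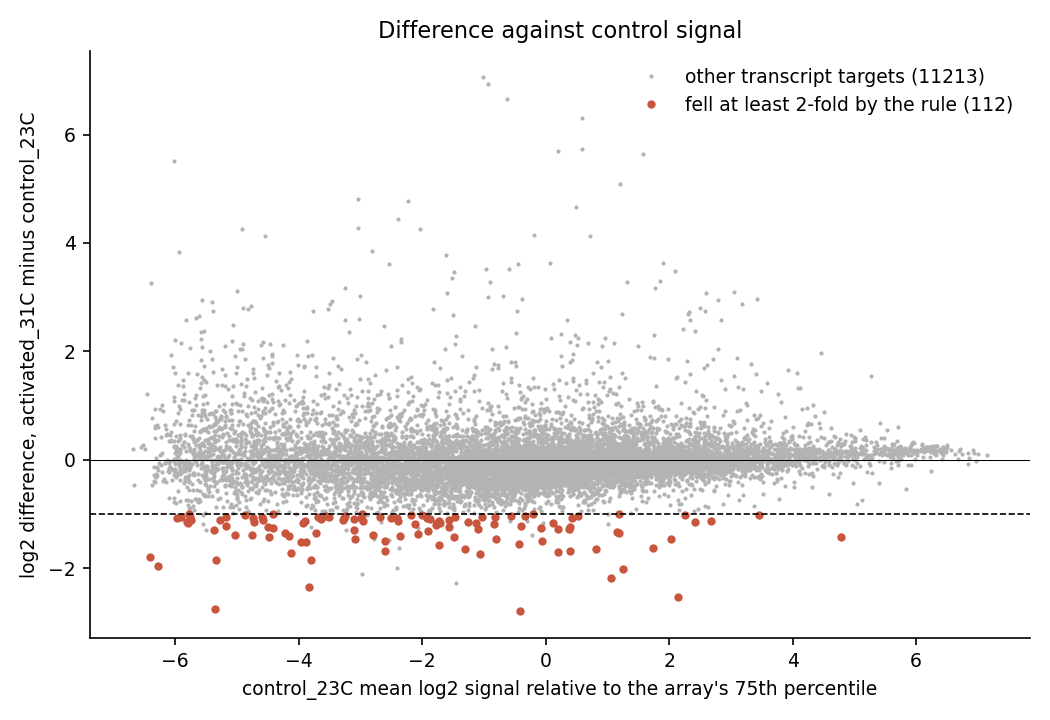
Each point is a transcript target that was well above background on all 4 control arrays, with the control_23C mean log2 signal on the x axis and the log2 difference, activated_31C minus control_23C, on the y axis. The 112 fallen transcripts (red) lie below the dashed line at −1 and reach −2.79, while other targets (grey) rise to 7.06; grey points below the line are the 22 targets whose groups overlapped.

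The largest fall of a transcript still well above background after warming was that of FBtr0080095. Its log2 signal was −0.51, −0.37, −0.18 and −0.57 on the control arrays and −2.82, −3.51, −3.13 and −3.34 on the warmed arrays, a mean difference of −2.79. The lowest control and the highest warmed array were 2.25 apart, which is the widest gap among the 112. FBtr0087789 read 2.53, 2.14, 1.66 and 2.24 in the controls and −0.58, −0.35, −0.39 and −0.23 after warming, a difference of −2.53. Its controls spread more (SD 0.36, n = 4) than its warmed arrays (SD 0.15, n = 4), and the groups were still 1.89 apart.

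The steadiest of the large falls was that of FBtr0077721, at 1.06, 1.07, 1.07 and 1.04 in the controls and −1.17, −1.19, −1.04 and −1.07 after warming. Its difference of −2.18 was 41.6 times the pooled SD of the groups, the highest such ratio among the members. FBtr0082060 had the opposite character, with 0.75, 1.30, 1.34 and 1.63 in the controls and −1.21, −0.91, −0.46 and −0.44 after warming, a difference of −2.01 with a spread in both groups (SD 0.37 and 0.38, n = 4 each) well above that of FBtr0077721 (SD 0.015 and 0.07, n = 4 each). FBtr0080957 read −4.52, −3.67, −3.56 and −3.58 in the controls and −6.47, −6.31, −6.10 and −5.89 after warming, a difference of −2.36 (−1.56 with normexp background correction). Control replicate 1 stood below the other controls of that transcript, and all warmed arrays were lower still.

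In 4 members no warmed array was well above background, so the size of their falls is uncertain. Where a member's signal was lower, it was replaced by a floor, the dimmest signal of any probe well above background on that array. FBtr0080001 read −5.35, −5.54, −5.20 and −5.34 in the controls. It was 5.72-fold lower by this floor, and its measured mean after warming was −8.12. FBtr0084728 was 3.15-fold lower by the floor, from a control mean of −6.28 to a measured −8.24, and FBtr0089048 3.07-fold lower, from −6.40 to −8.20. FBtr0086825 lay above the floor, so its 2.22-fold is the measured fall, from −5.82 to −6.96. It was not well above background at that signal. The floor is thus no detection limit for each probe, and these folds are not lower limits. With normexp background correction, which adds an offset before the log, the log2 differences were −1.21 for FBtr0080001, −0.73 for FBtr0084728, −0.70 for FBtr0089048 and −0.74 for FBtr0086825, so that the last 3 were less than 2-fold. In 7 further members 1 warmed array was well above background and in 3 members 3 were, while the other 98 members stayed well above background on all 4 warmed arrays.

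Among the remaining members of the 15 with the largest falls, the differences were −1.85 for both FBtr0073358 and FBtr0100082, the latter −0.95 with normexp. They were −1.75 for FBtr0083922, −1.73 for FBtr0081131, −1.70 for FBtr0091811, −1.69 for FBtr0077416 and −1.68 for FBtr0091805. FBtr0083922 was tight in both groups, with controls from −1.11 to −1.01 and warmed arrays from −2.89 to −2.72. FBtr0100082 was well above background on 1 of the 4 warmed arrays, and its values there ran from −7.67 to −6.55. The plot of the 15 largest falls shows the groups apart on every line, which the rule requires, and spreads that differ widely between transcripts.

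**Figure D2:**
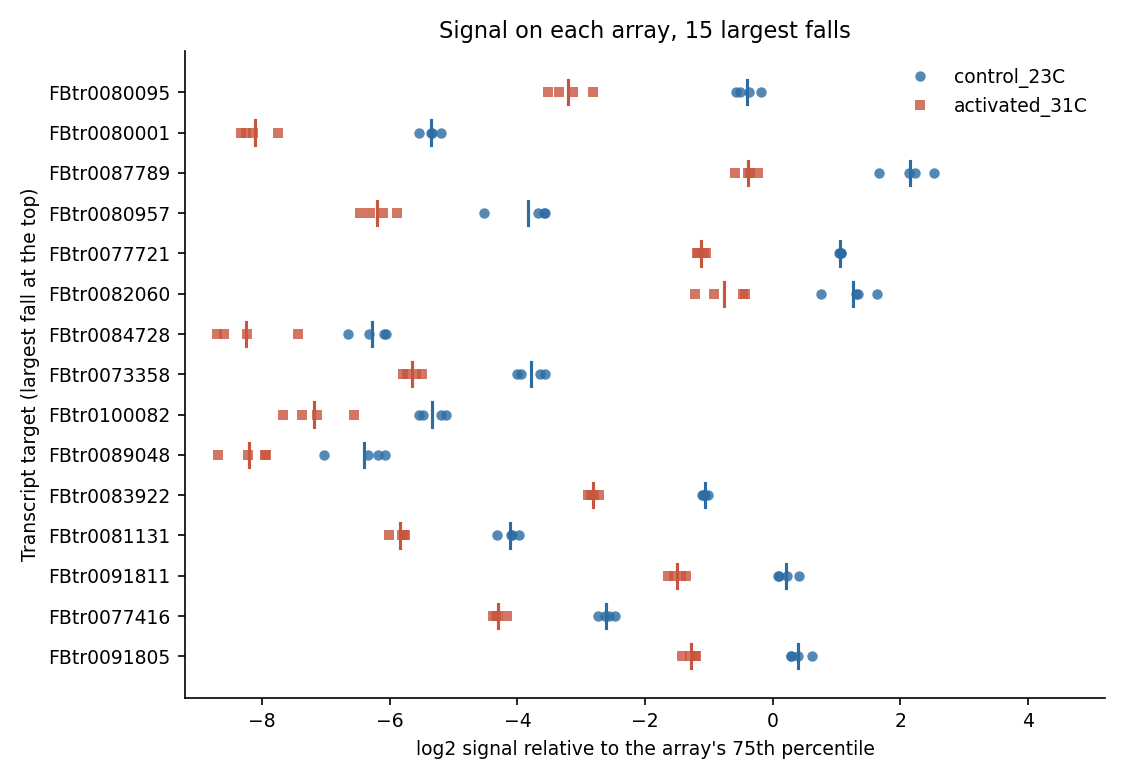
The log2 signal relative to the array's 75th percentile (x axis) is shown on each of the 8 arrays for the 15 transcripts with the largest falls (y axis), with control_23C as blue circles, activated_31C as red squares and a vertical bar at each group mean. FBtr0077721 and FBtr0083922 form tight clusters, while FBtr0084728 spans −8.71 to −7.44 on the warmed arrays.

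The falls were not limited to dim probes, although dim probes held most of them. When the 11325 targets were divided by control signal into 4 parts of nearly equal size, the dimmest part held 60 members (2.12%), the next 28 (0.989%), the next 16 (0.565%) and the brightest 8 (0.283%). The median log2 difference of the members was −1.14 in the dimmest part and −1.29 in the brightest. Over all targets in those parts the median SD of the controls was 0.152, 0.086, 0.076 and 0.082 from the dimmest to the brightest. The dimmest part thus had both the largest spread and the highest share of members, while over the other 3 parts the spread was nearly level and the share still declined. Over the 112 members the signed log2 difference had a Spearman correlation of −0.087 with control signal, across transcripts that share the same arrays.

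The brightest member probe was that of FBtr0086632, at 4.98, 4.64, 4.91 and 4.63 in the controls and 3.17, 3.50, 3.37 and 3.40 after warming, a difference of −1.43. FBtr0080117 had almost identical controls of 3.46, 3.46, 3.46 and 3.45 (SD 0.009, n = 4) and warmed values of 2.34, 2.71, 2.41 and 2.30, a difference of −1.02. The differences of the other bright members were −1.16 for FBtr0075512, −1.13 for FBtr0070864 and −1.03 for FBtr0070793. The gap between the groups of these 5 transcripts ran from 0.66 to 1.12.

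The values ran on across the threshold without a break. The members with the smallest falls were FBtr0083968 and FBtr0077693, both at −1.01 (FBtr0083968 at −0.62 with normexp), and FBtr0075032, FBtr0075707 and FBtr0085556, which all rounded to −1.0. Just outside were FBtr0080616 and FBtr0083790 at −0.99, and FBtr0088031, FBtr0078281 and FBtr0078802 at −0.98 (FBtr0078281 at −0.63 with normexp). A further 22 targets had a mean difference of at least 2-fold but overlapped between groups.

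The rule asks for a fall of at least 1 and groups that do not overlap, so the ratios and gaps given next describe the choice and support nothing. The SD of the controls had a median of 0.13 over the members and that of the warmed arrays 0.14, against 0.09 and 0.10 over all 11325 targets, and the fall was over 10 times the pooled SD in 44 members. The gap between the lowest control and the highest warmed array had a median of 0.90 and was at least 1 in 44 members. Spots repeated on the array gave a measure of technical error. In the 65 members whose probe was spotted in duplicate, the 520 pairs of spots differed by a median of 0.08 on the log2 scale, with 2 pairs over 1.

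In 2 members, named here after their values were seen, the controls did not form 1 level. FBtr0087602 read −5.95, −3.58, −5.58 and −5.60 in the controls and −6.10, −6.37, −6.09 and −6.36 after warming. Its difference of −1.05 rested on control replicate 2 and was −0.52 without it, the sole case among the 112 in which leaving out a single array changed a difference by over 1.5 times. FBtr0074977 read −3.47, −5.28, −3.85 and −5.37 in the controls and −5.54, −6.31, −5.42 and −5.64 after warming, where its highest value was 0.055 below the lowest control. Controls 2 and 4 of that transcript thus lay next to the warmed arrays.

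Other probes for the same transcript gave a second reading that the rule did not use, although from the same RNA and arrays. Of the 112 members, 20 had more than 1 probe, with 23 other probes in all. Of these, 15 probes of 14 members were well above background on all control arrays. All 15 had a negative difference with no overlap between the groups, and 10 were at least 2-fold lower. Among 4074 such other probes of transcripts outside the 112, 901 (22.1%) were lower with no overlap and 18 were at least 2-fold lower. The median difference of the 15 was −1.27, beside −1.08 for the probes that stood for the same members. Probes of 1 transcript may overlap in sequence, which the files do not give, so these counts carry no test. The condition on the controls also keeps probes by the group in which members are high by choice. Probes that it left out are described below.

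Agreement between probes was close in some members and loose in others. The other probe of FBtr0084852 differed by −1.58 against −1.62, and those of FBtr0082589 by −1.16 against −1.17 and of FBtr0087448 by −1.09 against −1.08. The other probe of FBtr0084851 differed by −1.76 against −1.06. For FBtr0075707, which had 4 probes, the probe used differed by −1.0 and the others by −0.96, −0.46 and −1.10, with the last of these probes not well above background on all controls. Of the 8 other probes that were not well above background on all controls, differences ran from −1.41 to 0.86, and 4 were well above background on no control array. The members of this paragraph were picked after their values were seen.

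**Figure D3:**
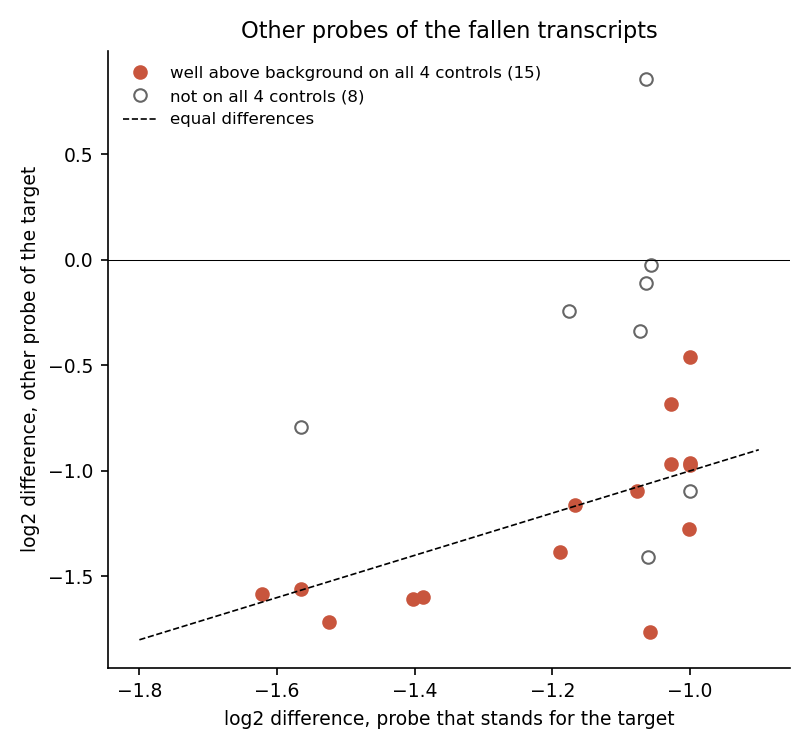
Each point is another probe of a fallen transcript, with the log2 difference (activated_31C minus control_23C) of the probe that stands for the transcript on the x axis and that of the other probe on the y axis; the dashed line marks equal differences. The 15 filled points, well above background on all 4 controls, lie between −1.76 and −0.46, while the 8 open points, which were not, reach up to 0.86.

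Within the groups, the fallen transcripts varied together about as much as transcripts at large. The correlation of their deviations from the group means over the 8 arrays had a median of 0.039 over the 6216 pairs of members, with quartiles of −0.29 and 0.37. Over all pairs of 11324 transcript targets measured on every array the median was 0.056, with quartiles of −0.29 and 0.40. By the median over the members, the arrays of a group were close. The median deviation of the 112 from the group mean lay between −0.039 and 0.049 on the 8 arrays, and the per-array medians were −2.35 to −2.23 in the controls and −3.55 to −3.46 after warming. Control replicate 3 was the lowest control in 8 members, against 34 or 35 for each of the other controls, and the highest in 39. Warmed replicate 3 was the lowest warmed array in 10 members, against 28 to 38 for the others. The median deviation on control replicate 3 was 0.049 over the members and 0.029 over all 11325 targets. On warmed replicate 3 it was 0.037 over the members and 0.02 over all targets. The members thus read slightly higher on both arrays, and so did targets at large. How often each array was highest or lowest over all targets was not counted.

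A few members did track each other, and these were picked after their values were seen. FBtr0079253 and FBtr0087170 had the highest correlation of deviations (0.988). FBtr0079253 read −2.95, −1.41, −2.17 and −2.49 on the warmed arrays, and FBtr0087170 read −2.60, −2.07, −2.33 and −2.49, so both were highest on replicate 2 and lowest on replicate 1. FBtr0091805 and FBtr0091811 were nearly the same measurement. FBtr0091805 read 0.28, 0.40, 0.29 and 0.62 in the controls and −1.30, −1.42, −1.22 and −1.20 after warming. FBtr0091811 was within 0.25 of it on every array, with a correlation of 0.983, so a shared target of the probes and separate falls cannot be told apart.

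Those transcripts belong to the longest run of members in identifier order. FBtr0091805, FBtr0091808, FBtr0091811 and FBtr0091814 are consecutive among the transcript targets of this array, and their differences were −1.68, −1.04, −1.70 and −1.64. The targets on either side, FBtr0091804 and FBtr0091872, differed by 0.04 and 0.37, the first of them not well above background on all controls. Together 12 members lay in 5 such runs, and the others were FBtr0084851 with FBtr0084852, FBtr0086632 with FBtr0086634, FBtr0087448 with FBtr0087449, and FBtr0300416 with FBtr0300417. Next to the first of these pairs, FBtr0084849 differed by −0.65 and FBtr0084853 by −0.95. Next to the last, FBtr0300411 differed by −0.79 and FBtr0300418 by −0.87. The neighbours of the other pairs showed no such falls, with 0.08 for FBtr0086630, −0.06 for FBtr0086637, −0.12 for FBtr0087447 and 0.19 for FBtr0087450. Adjacent numbers show neither a shared gene nor a shared position, and the deviations within the 4 pairs correlated from −0.56 to 0.59.

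Targets next to a member that were no members themselves were close to targets at large. Members next to members are left out of this comparison, so it cannot show whether members lie together in identifier order. Of the 165 targets next to a member in identifier order that were themselves well above background in the controls and no members, the median difference was −0.067, and 46 (27.9%) were lower with no overlap. Over all 11325 targets the median difference was −0.0406 and that share was 28.2%.

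Targets of other kinds were taken through the same rule. Of 5624 clone, consensus and accession targets well above background in the controls, 49 (0.871%) fell at least 2-fold, with 27 of 3053 consensus targets (0.884%), 21 of 2264 clones and similar targets (0.928%) and 1 of 307 RefSeq accession targets (0.326%). A gene symbol could be found for 2 of the 49. The long non-coding RNA lncRNA:CR33948 read −4.18, −3.64, −4.11 and −4.01 in the controls and −5.83, −6.20, −6.18 and −5.49 after warming, a difference of −1.94. CG7720 read −1.91, −1.93, −2.19 and −2.10 in the controls and −3.36, −3.36, −2.84 and −2.98 after warming, a difference of −1.10.

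Of 454 genes on lists of likely responders and tissue markers, 12 had a named probe that could be tested, and 0 of them were members. Since no member could be named, that 0 was fixed beforehand. It does not show whether genes of the lists are among the fallen transcripts. In limma's fit over 17938 targets of all kinds, 24.6% were lower and 19.5% higher at an adjusted p under 0.05, and 158 (0.881%) were lower by at least 2-fold. Of those past the threshold 44.3% were higher, against 34.1% after quantile normalization and 30.6% with spike-in centring. The share was 52% when each array was centred on its detected probes' median, which turned the majority, and 50% without the 3 arrays named above. Of the 12 genes, 3 were lower and 3 higher. The lower genes were pcm, which encodes a cytoplasmic 5′-to-3′ exoribonuclease, dap, which encodes a cyclin-dependent kinase inhibitor, and eya, which encodes a transcriptional coactivator of eye development. The log2 difference was −0.50 for pcm (SE 0.0526, limma adjusted p = 0.000199), −0.34 for dap (SE 0.0525, limma adjusted p = 0.00143) and −0.20 for eya (SE 0.0593, limma adjusted p = 0.0301). The 3 higher genes were CrebA, spdo and ct. The log2 difference was 3.05 for spdo (SE 0.1393, limma adjusted p = 3.98e-06), the largest change of the 12. It was 0.42 for CrebA (SE 0.0922, limma adjusted p = 0.00752) and 0.24 for ct (SE 0.0572, limma adjusted p = 0.0107). The spdo gene overlaps another gene, PH4alphaEFB. With spike-in centring the calls of eya (limma adjusted p = 0.0892), CrebA (limma adjusted p = 0.166) and ct (limma adjusted p = 0.417) were lost. With quantile normalization pros (−0.20, limma adjusted p = 0.0295) and Oamb (−0.19, limma adjusted p = 0.0374) were lower as well.

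The number of fallen transcripts depended on how the arrays were processed, as the plot of the counts by setting shows. The 112 were chosen at −1 or lower, so the sign of their differences under other scalings is no check of them. The rule gave 63 with normexp background correction, all among the 112. It gave 146 when the arrays were quantile-normalized and 178 when they were centred on spike-in probes. Spike-in centring moved the median difference of all transcript targets to −0.16, a shift of every target alike. In 59 members the rule held under all 8 ways of processing, among them 12 of the 15 largest falls, and in 86 it held with each single array left out.

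**Figure D4:**
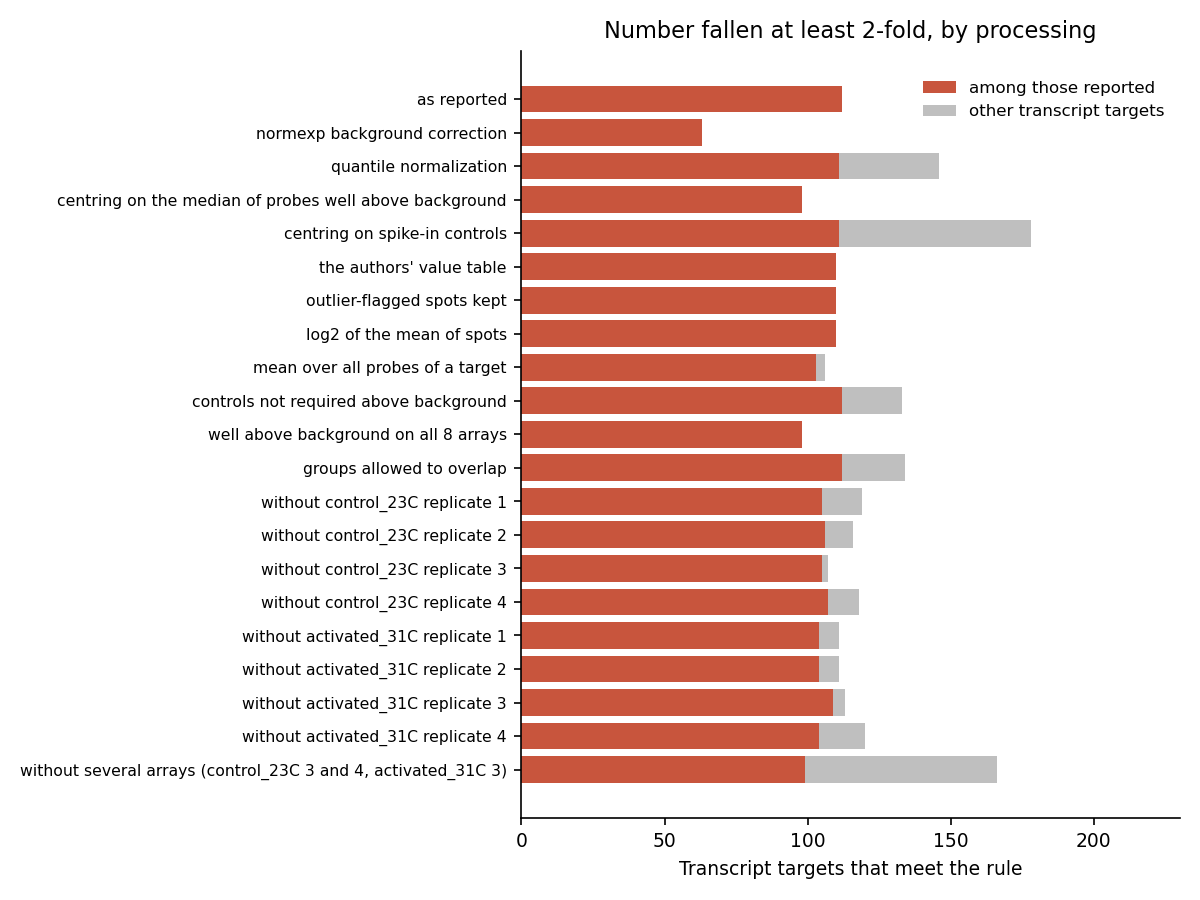
Bars give the number of transcript targets that met the rule (x axis) under each way of processing (y axis), with those among the 112 reported in red and others in grey. Counts run from 63 with normexp background correction to 178 after centring on spike-in controls.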

How the data were processed

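Gene expression was measured in 8 pools of heads on 1-colour Agilent arrays, with samples grouped by title. Spot intensity values in the deposited scanner files were background-subtracted and detrended within each array by Feature Extraction, version 10.7.3.1 per the file headers and 9.1.3.1 per the submitters' processing notes. The authors also deposited a log2 value table. Each of its columns correlated with the scanner deviations from the probe median at 0.980 to 0.993, so its direction follows the scanner values. Correlation does not show scale, but the median log2 difference of the 112 was −1.18 from both sources. Well-above-background flags are the scanner software's, per the file headers.

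Control spots and 559 outlier-flagged spots were left out. The log2 processed signal was averaged per probe and each array's 75th percentile (4616.1 to 5356.7 intensity units) subtracted. A target took its probe with the highest mean. An array counted as well above background when at least 50% of a probe's spots did. For limma 3.58.1 in R 4.3.3 (lmFit, eBayes, group only, Benjamini-Hochberg adjustment over 17938 targets, threshold 0.05) a target had to be well above background on all 4 arrays of a group and measured on at least 6 arrays. The fit was tested on simulated data. The fold by the floor sets the control mean against a mean over warmed arrays. That mean takes the probe's signal or, where higher, the dimmest signal of any probe that was well above background there.

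The members and gene lists were chosen with earlier results of these data known. Transcripts described in full are the 15 largest falls, the 5 brightest, 5 on each side of the threshold and those below background after warming, unless stated otherwise. The scanner files have no mean spot signal, so normexp (offset 50) used the median signal in place of the planned mean.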

Additional observations from a re-analysis of the deposited data

Results flagged for a closer look

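The values of 62 groups of 4 arrays were checked for 1 array standing apart, by its gap to the nearest array over the range of the group, and 4 such cases were found, where chance at 1 in 20 gives 3.1. This ratio came to 0.886 for FBtr0080957 in control_23C, where replicate 1 was lowest at −4.52. It was 0.924 for FBtr0078802, which lies just outside the threshold, in activated_31C, with replicate 4 highest at −3.52. For FBtr0086825 it was 0.871 in control_23C, with replicate 2 highest at −5.67, and 0.843 in activated_31C, with replicate 2 lowest at −7.00, where no array was well above background.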

How the results depend on the processing

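The number of fallen transcripts was 112 as reported, 63 with normexp background correction, 178 after centring on spike-in controls and 615 when a fall of 1.5-fold sufficed, a wider limit by construction. Their median log2 difference was −1.02 with normexp, −1.26 with quantile-normalized arrays and −1.30 with spike-in centring. The cause was not tested, although the offset in normexp shrinks dim differences by construction. With each array left out in turn, the count was highest at 120, without activated_31C replicate 4, and lowest without control_23C replicate 3, and the median ran from −1.22 to −1.16. Of 7910 targets changed in limma's fit, 4400 were changed without control_23C replicates 3 and 4 and activated_31C replicate 3, with fewer arrays by construction, and between 6840 and 7608 with each array left out. Of the 12 list genes 3 passed after spike-in centring, against 6 as reported. Targets lower by at least 2-fold in that fit numbered 158, with 83 under normexp and 263 under spike-in centring. With the replicate number as a block, 7089 targets were changed. Same-numbered samples deviated together with correlations of 0.149, 0.122, 0.57 and −0.176, and differently numbered samples with −0.57 to 0.456. So few values cannot settle whether the numbers pair the samples. Of 558 recomputed differences of the 31 transcripts described by rule, 33 moved by over 1 SD. All 33 lay under normexp, spike-in centring, quantile normalization or averaging over a target's probes. Normexp moved most of the 31 transcripts, more than any other setting. The sign of the differences could hardly change, since the 31 were picked near or below −1. The block leaves these differences as they are. Signal over background limits the falls of the 14 members below background on some warmed array.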
